A study of Mus musculus with 16 samples.

Results

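The natriuretic peptide system was followed through 8 genes in mouse cardiomyocytes (CMs) before and after birth: the ligands Nppa, Nppb and Nppc, the processing enzymes Corin and Furin, and the receptors Npr1, Npr2 and Npr3. The members were the genes whose symbol on the array was one of these names, which picked 8 of the 27370 named genes on the array, each with 1 probe. CMs came from CD1 wild-type hearts at embryonic day 15.5 (E15.5) and at postnatal day 2 (P2). At E15.5, viable cells positive for ERBB-2, a receptor tyrosine kinase, were sorted into fractions with low or high surface levels of integrin alpha 6 (ITGA6, also named CD49f), here called EL and EH. At P2, non-myocytes were first removed with magnetic beads and the remaining CMs were sorted into the same low and high fractions, here called PL and PH. Each of the 4 groups held 4 samples, measured on 16 one-colour arrays with probes of 60 bases. Samples were pools of 20 to 30 embryonic hearts or 15 neonatal hearts, with at least 50000 cells a fraction and 10 ng of RNA on each array. Each value thus describes a pool of animals. The sample numbers are 2, 3, 6 and 8 at E15.5 and 2, 3, 4 and 5 at P2, and an array is named by its group and number (EL2).

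Atrial natriuretic peptide (gene Nppa) and brain natriuretic peptide (Nppb) are hormones made by CMs and secreted from granules, while C-type natriuretic peptide (Nppc) is mostly a local signal of endothelium and cartilage. The precursor of atrial natriuretic peptide is cleaved by corin, a serine protease of the CM membrane, and furin, a proprotein convertase of the trans-Golgi network, cleaves the brain and C-type precursors. Npr1 and Npr2 encode receptor guanylyl cyclases that make cyclic GMP after ligand binding, whereas the Npr3 product binds all these peptides and clears them. In the embryonic heart Nppa is a classical marker of atrial chamber and trabecular myocardium, and after birth its expression becomes largely atrial.

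Sequences are shown where they bear on what a probe can report. Nppa and Nppb lie side by side on mouse chromosome 4: in the mm9 build the probe of Nppb covers chr4:147360489-147360548 and that of Nppa chr4:147376024-147376083, both on the plus strand and 15535 bases apart, and RefSeq lists 0 protein-coding genes between them. The Nppb probe is given because 1 such stretch carries every value of that gene. The Npr1 probe is given because this receptor was above background on no array. Its 60 bases are spread over 494 bases of mm9, chr3:90259171-90259664 on the minus strand, so it spans a splice junction.
Nppb probe: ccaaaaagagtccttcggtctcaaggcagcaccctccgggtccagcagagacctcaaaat
Npr1 probe: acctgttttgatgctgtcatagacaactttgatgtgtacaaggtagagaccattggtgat
The other probes cover chr1:88563020-88563079 on the minus strand for Nppc, chr4:43664035-43664094 on the plus strand for Npr2, and chr15:11769937-11769996, chr5:72692288-72692347 and chr7:87534082-87534141 on the minus strand for Npr3, Corin and Furin.

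The promoters of both heart peptide genes are given because the 2 neighbours are read against each other throughout. The stretches are from RefSeq on GRCm38.p6, and capitals mark matches to short motifs of cardiac transcription factors. For Nppa the whole 250 bases before the annotated start are shown (chr4:148000472-148000721, plus strand). For Nppb the window from 106 to 77 bases before the start is shown (chr4:147985794-147985823, plus strand), which holds all its matches.
Nppa promoter: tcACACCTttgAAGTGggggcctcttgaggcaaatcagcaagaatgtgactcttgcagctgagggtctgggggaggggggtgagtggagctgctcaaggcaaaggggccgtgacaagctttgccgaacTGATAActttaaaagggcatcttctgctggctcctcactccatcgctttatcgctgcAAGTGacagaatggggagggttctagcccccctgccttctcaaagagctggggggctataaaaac
Nppb promoter: aGGAATGcagcTGATAAatcagAGATAAcc
Letters were searched on both strands of the 250 bases before the start, in 32536 distinct windows. The GATA letters (GATA led by A or by T and followed by A or by G) matched 1 time in Nppa, 122 bases before the start, and 2 times in Nppb, 95 and 84 bases before it, and 26.5% of all windows hold them. The NKX2-5 letters AAGTG matched 2 times in Nppa and in 40.6% of all windows, and the T-box letters AGGTGT 1 time, on the reverse strand as ACACCT, and in 11.9%. The MCAT letters CATTCC, read by TEAD factors, matched 1 time in Nppb, on the reverse strand as GGAATG, and in 12.6%. Outside this pair, Furin held 4 matches to AAGTG and Npr2 held 1 to AGGTGT, while Corin, Nppc, Npr1 and Npr3 held none. The Hey E-box letters CACGTG, the COUP-TF letters AGGTCA, the MEF2 box and the CArG box matched in none of the 8 members and in 6.04%, 14.0%, 3.22% and 1.48% of all windows. A match to such letters is a description of the sequence, not a bound site.

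Signals below are the deposited Agilent processed signals after quantile normalization, on a linear scale without unit. A probe counts as detected where the scanner called it well above background. Between 35.7% and 46.5% of the probes of an array were well above background. The range was 38.9 to 41.0 in EL, 40.9 to 46.5 in EH, 35.7 to 39.8 in PL and 37.0 to 40.6 in PH. Nppa, Nppb, Corin, Furin and Npr2 were detected on all 16 arrays, Npr3 on 7, and Nppc and Npr1 on none. Brightness differs between probes for reasons of sequence, so amounts are compared within a gene only. Ranks and sums over probes below describe signal, not amount. The arrays of E15.5 lay on 2 slides, scanned on different days, and all P2 arrays on 1 other slide. Stage, slide and isolation method therefore cannot be told apart, and comparisons of the stages carry all 3. All groups were also checked against markers: Tnnt2, Tnni3, Actc1, Myh6, Ryr2 and Nkx2-5, the CM list, were detected on every array. Of these 6 genes, 4 passed higher in PL than in EL (Tnnt2 1.48-fold, Tnni3 2.92-fold, Myh6 3.94-fold and Ryr2 2.89-fold), 2 in PH than in EH (Tnni3 and Ryr2) and 1 in EH than in EL (Myh6, 3.58-fold), and Ryr2 was 1.29-fold lower in PH than in PL. The part of such shifts in the results below was not tested. Values within slide 2, where EH6 is the 1 high array, come from fits that also hold the P2 arrays and in which EH6 is assumed to vary like the other arrays, so that a missed test there says nothing of a gene.

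In both stages, the ITGA6high fraction had higher levels of Nppa, the gene of atrial natriuretic peptide, and of Corin, whose product activates it. From EL to EH, Nppa rose 20.5-fold, Corin 4.15-fold, Nppb 2.33-fold, Npr2 1.42-fold and Furin 1.33-fold. From PL to PH, Nppa rose 19.7-fold, Corin 3.09-fold, Furin 1.38-fold and Npr2 1.23-fold, and Nppb, at 1.40-fold, did not pass the test. All differences were tested with limma over 55673 probes, and a member passed the test where p, adjusted by Benjamini-Hochberg, did not exceed 0.05. It was called where it was also at least 3-fold apart.

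At E15.5, 5 of 8 members passed the test higher in EH, against 4.27% of all probes, and 0 of 8 lower, against 3.83% (0 of 8 also at an unadjusted p under 0.05). Called higher were 2 of 8, Nppa and Corin, against 1.17% of all probes. At P2, 4 of 8 passed higher in PH, against 6.15%, and 0 of 8 lower, against 5.41% (0 of 8 unadjusted). Nppa and Corin, again 2 of 8, were called higher in PH, against 1.74% of all probes. The shares of all probes include many at background. Detected on all 4 arrays of at least 1 group were 22247 probes, Nppc and Npr1 not among them. Tested alone, 5421 of these passed in either direction from EL to EH and 7155 from PL to PH. The median log2 fold change of the 8 members was 0.61 from EL to EH and 0.38 from PL to PH, where the medians of all probes were -0.02 and -0.01.

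**Figure D1:**
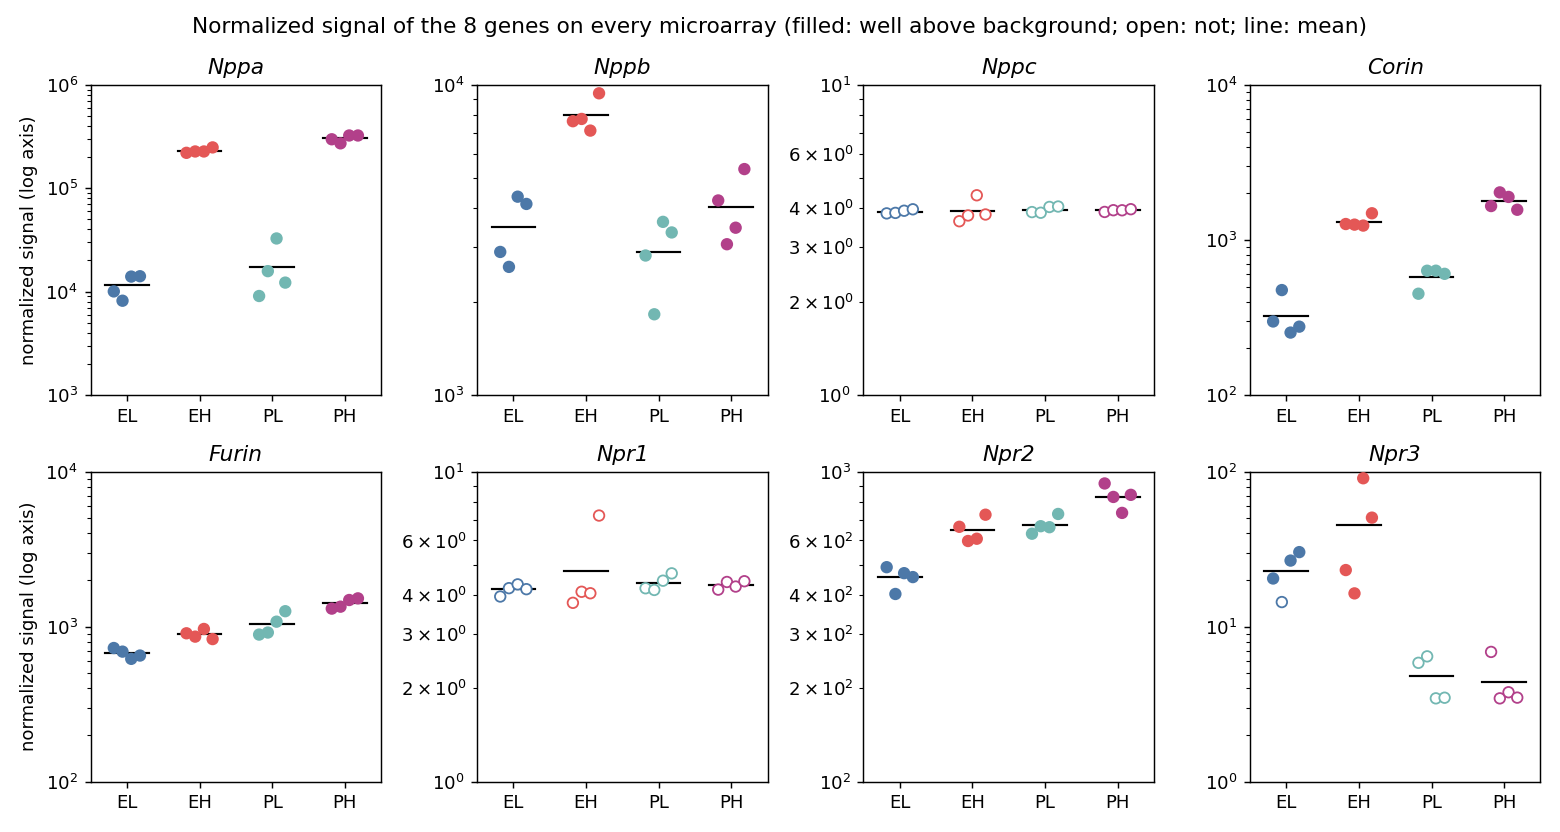
Normalized signal of the 8 members on each of the 16 arrays, on log axes without unit whose range differs between panels, by group (EL, EH, PL, PH); filled points are arrays where the probe was well above background, open points arrays where it was not, and bars mark group means. Nppa and Corin separate the low from the high fraction at both stages, and Nppc and Npr1 hold open points only.

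Nppa was the ligand gene with the widest difference between fractions. Its signal in EL was 10038 on array 2, 8157 on array 3, 13972 on array 6 and 14084 on array 8, and in EH, in the same order, 220267, 227022, 227022 and 248553. In PL it was 9063 on array 2, 15767 on array 3, 32669 on array 4 and 12214 on array 5, and in PH 297935, 272116, 324175 and 324175. Every array of a high fraction was above every array of a low fraction, and PL4 was the highest of the low arrays. The mean of EL was 11563 ± 2948 (SD, n = 4) and that of EH 230716 ± 12310, while PL averaged 17428 ± 10523 and PH 304600 ± 24940. The log2 difference was 4.35 from EL to EH (SE 0.302, adjusted p = 9.04e-07, limma) and 4.30 from PL to PH (adjusted p = 3.47e-07), and the stages' differences were not shown to differ (-0.06 on the log2 scale, SE 0.427, adjusted p = 0.979).

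The Nppa probe is printed in 10 spots on each array, which gives a check within the array. Of these, 8 to 10 spots were usable, the coefficient of variation over them was 2.19% to 8.41%, and no spot was saturated. Nppa was the brightest to the fourth brightest probe on the PH arrays, and the sixth to ninth on the EH arrays. It ranked between 897 and 1328 on the EL arrays and between 447 and 1233 on the PL arrays. At the very top, quantile normalization hands arrays the same few values, which is why 2 EH arrays and 2 PH arrays share theirs. With each array scaled to its 75th percentile instead, the mean was 12982 ± 3730 for EL and 201321 ± 13146 for EH, 18478 ± 11096 for PL and 292135 ± 35527 for PH, and the log2 differences were 4.0 from EL to EH and 4.15 from PL to PH.

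Within a fraction, Nppa did not pass the test between the stages. PL was 0.46 above EL on the log2 scale (adjusted p = 0.389), and the groups overlapped. PH was 0.40 above EH (adjusted p = 0.467), although all 4 PH arrays were above all 4 EH arrays. In a fit of EH and PH alone, which estimates the spread from these 8 arrays, that same difference passed (adjusted p = 0.0113).

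Nppb, the neighbour of Nppa, followed the fractions less and the stages differently. In EL its signal was 2892, 2588, 4360 and 4131 on arrays 2, 3, 6 and 8, and in EH 7638, 7768, 7124 and 9398. In PL it was 2816, 1820, 3617 and 3343 on arrays 2, 3, 4 and 5, and in PH 4239, 3063, 3463 and 5353. EH stood above the other groups without overlap, whereas PL and PH overlapped. The mean was 3493 ± 883 in EL and 7982 ± 984 in EH, a log2 difference of 1.22 (SE 0.238, adjusted p = 0.00474). At P2, PL averaged 2899 ± 792 and PH 4029 ± 1008, where the difference of 0.49 did not pass (adjusted p = 0.276).

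From EH to PH, Nppb fell by 1.01 on the log2 scale, which is 2.02-fold (adjusted p = 0.00821). PL was 0.28 below EL (-0.28, adjusted p = 0.511), a difference within the spread. The change of the high-to-low difference between the stages was -0.73 (SE 0.337) with an unadjusted p of 0.0488 and an adjusted p of 0.402, so it did not pass over all probes. In order of level, PL, EL and PH followed each other without a neighbour pair that passed the test (PH against EL 0.21, adjusted p = 0.672), and EH stood above them. Within slide 1 (EL2, EL8, EH2, EH3 and EH8) the difference from EL to EH was 1.25 with an adjusted p of 0.0554, and within slide 2 (EL3, EL6 and EH6) it was 1.08 with 0.410, and with the slide as a block it was 1.19 with 0.0112.

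Nppc, the third ligand gene, was not well above background on any of the 16 arrays. Its group means were 3.90, 3.91, 3.96 and 3.94 in EL, EH, PL and PH, so no fold is given.

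Corin, the enzyme that activates atrial natriuretic peptide, went with Nppa. In EL its signal was 298, 475, 252 and 276 on arrays 2, 3, 6 and 8, and in EH 1266, 1255, 1238 and 1486. In PL it was 450, 633, 633 and 604 on arrays 2, 3, 4 and 5, and in PH 1654, 2026, 1894 and 1565. The high and low fractions did not overlap at either stage. Means were 325 ± 101 in EL and 1311 ± 117 in EH (log2 difference 2.05, SE 0.178, adjusted p = 5.56e-06), while PL averaged 580 ± 87.9 and PH 1785 ± 213 (1.63, adjusted p = 2.19e-05). The P2 difference lay close to the 3-fold limit, and without PL2 or without PH3 it fell below it, at 1.51 and 1.56 on the log2 scale. It was also below the limit after scaling to the 75th percentile (1.58) and after normexp (1.53), and passed the test in all 4.

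Between the stages, Corin rose in the low fraction by 0.87 on the log2 scale (1.82-fold, adjusted p = 0.00271), with EL3 inside the range of PL. In the high fraction PH was 0.44 above EH (adjusted p = 0.118), which did not pass although the arrays did not overlap. It did pass after normexp (adjusted p = 0.0426), in a fit of EH and PH alone (0.0285) and without EL3 (0.0254). The high-to-low difference was not shown to change between the stages (-0.43, SE 0.251, adjusted p = 0.586). Its order of level, EL, PL, EH and PH, thus held 1 neighbour pair that did not pass, EH and PH.

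Furin, the general convertase, differed by stage and by fraction in small and even steps. Its signal in EL was 728, 690, 620 and 651 on arrays 2, 3, 6 and 8, and in EH 906, 862, 967 and 832. In PL it was 889, 917, 1077 and 1258 on arrays 2, 3, 4 and 5, and in PH 1308, 1346, 1486 and 1523. The fractions did not overlap within a stage, and EH and PL did. From a mean of 672 ± 47.0 in EL, Furin rose by 0.41 on the log2 scale to 892 ± 58.5 in EH (SE 0.105, adjusted p = 0.0272). From 1035 ± 170 in PL it rose by 0.46 to 1416 ± 105 in PH (adjusted p = 0.00885). From EL to PL it rose by 0.61 (adjusted p = 0.000681) and from EH to PH by 0.67 (adjusted p = 0.000412). EH and PL, neighbours in the order, did not pass (-0.20 from PL to EH, adjusted p = 0.208), and the fraction difference was not shown to differ between the stages (0.05, SE 0.148, adjusted p = 0.922). The E15.5 difference of Furin did not pass with the floor (adjusted p = 0.0649), nor the P2 difference in a fit of PL and PH alone (0.0777). Scaled to the 75th percentile, Furin passed in neither fraction comparison (0.33, adjusted p = 0.225, and 0.40, adjusted p = 0.110), and within the E15.5 slides the difference was 0.33 (adjusted p = 0.314) and 0.56 (adjusted p = 0.249). The E15.5 difference also missed the test without EL3, EL6, EL8, EH2 or EH6 (adjusted p from 0.0533 to 0.0824).

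Among the receptor genes, Npr2 alone was detected throughout. Npr2, the receptor of C-type natriuretic peptide, had signals of 492, 403, 471 and 457 on EL arrays 2, 3, 6 and 8, and of 664, 598, 608 and 726 in EH. In PL they were 631, 667, 662 and 730 on arrays 2, 3, 4 and 5, and in PH 916, 829, 736 and 842. EL lay below every other group, and PH above, while EH and PL overlapped. EL averaged 456 ± 37.8 and EH 649 ± 59.4, and PL averaged 673 ± 41.8 and PH 831 ± 73.8. Npr2 rose by 0.51 from EL to EH (SE 0.0888, adjusted p = 0.00207), by 0.56 from EL to PL (adjusted p = 0.000343) and by 0.36 from EH to PH (adjusted p = 0.0117), all on the log2 scale. The rise of 0.30 from PL to PH was the smallest that passed among the members (adjusted p = 0.0415), and it did not pass after scaling to the 75th percentile (0.27, adjusted p = 0.237), with the floor (0.152) or in a fit of PL and PH alone (0.0730). Within slide 2 the difference of Npr2 from EL to EH was 0.48 (adjusted p = 0.147). Leaving out EL6, EL8, EH2, PL2, PL3, PL4, PH2, PH3 or PH5 also left Npr2 short of the test from PL to PH (adjusted p from 0.0528 to 0.113). So did the replicate number as a block (adjusted p = 0.0571). EH and PL did not differ by the test (-0.05, adjusted p = 0.751), and the change of the fraction difference with stage was -0.21 (SE 0.126, adjusted p = 0.601).

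The clearance receptor gene Npr3 was detected at E15.5 and at P2 was not. In EL its signal was 20.5, 14.4, 26.7 and 30.3 on arrays 2, 3, 6 and 8, with 3 of 4 arrays well above background, and in EH it was 23.2, 16.4, 90.7 and 50.5, with all 4. None of the 8 P2 arrays was well above background, with signals between 3.45 and 6.87. All E15.5 arrays were above all P2 arrays, and EH6 was the highest. From EL to PL Npr3 was at least 1.14-fold lower and from EH to PH at least 2.27-fold lower. The adjusted p-values by limma, 0.00286 and 0.000282, belong to the fitted log2 differences of -2.26 and -3.11. These rest on P2 signals at background, and the p-values do not test the bounds. Each bound sets the mean of the E15.5 arrays against, on each P2 array, the dimmest signal that was still well above background, or the probe's own signal if higher. The first bound lay between 1.03 (without EL8) and 1.32 (without EL3) with an array left out. Without EH6 the second bound was 1.67, and leaving out each of the other arrays of EH and PH gave 2.03 to 2.96.

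The drop from EL to PL did not pass after normexp background correction (-0.28, adjusted p = 0.265), nor with every dim signal set to the lowest detected one (-0.21, adjusted p = 0.629). The drop from EH to PH passed without its 3-fold size after normexp (-0.82, adjusted p = 0.000925). With the floor it was -1.18, where 36532 of all 55673 probes pass from EH to PH because the floors of the arrays differ, so that test is not read. EL and EH overlapped and did not pass (0.72, SE 0.467, adjusted p = 0.505), although each EH array was above the EL array of its number. With the replicate number as a block the difference did not pass either. It was 0.11 within slide 1 and 2.21 within slide 2, where EH6 is the 1 high array.

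Npr1, the receptor of the atrial and brain peptides, was not well above background on any array. The group means of its probe were 4.17, 4.79, 4.38 and 4.32 in EL, EH, PL and PH, and no fold is given. A probe at background bounds the transcript region it covers and says nothing of the protein.

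Between the stages, the members moved both ways. In the low fraction, 3 of 8 members passed higher at P2 (Corin, Furin and Npr2), against 9.70% of all probes, and 1 of 8 lower (Npr3), against 10.0%. In the high fraction 2 of 8 passed higher (Furin and Npr2), against 9.12%, and 2 of 8 lower (Nppb and Npr3), against 8.36%. Of the 22247 detected probes tested alone, 11348 passed in either direction from EL to PL and 10047 from EH to PH. Beside these shares the members' counts are not read as an excess. Npr3 was the 1 member past the 3-fold limit, lower in each fraction, where 2.15% and 2.09% of all probes were. As its P2 signals were at background, that size rests on signals without a measured level, its bounds of 1.14-fold and 2.27-fold lie under the limit, and neither call remained with the floor or after normexp. No member's high-to-low difference changed with stage over all probes, with 0 of 8 past the adjusted p, against 1.81% of all probes for a larger and 1.35% for a smaller difference at P2. At an unadjusted p under 0.05 it was 1 of 8, Nppb. The medians of the members were 0.26 from EL to PL and 0.18 from EH to PH on the log2 scale, those of all probes 0.01 and 0.03. As all 6 group comparisons draw on the same 4 groups, they share arrays and are not independent of each other.

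**Figure D2:**
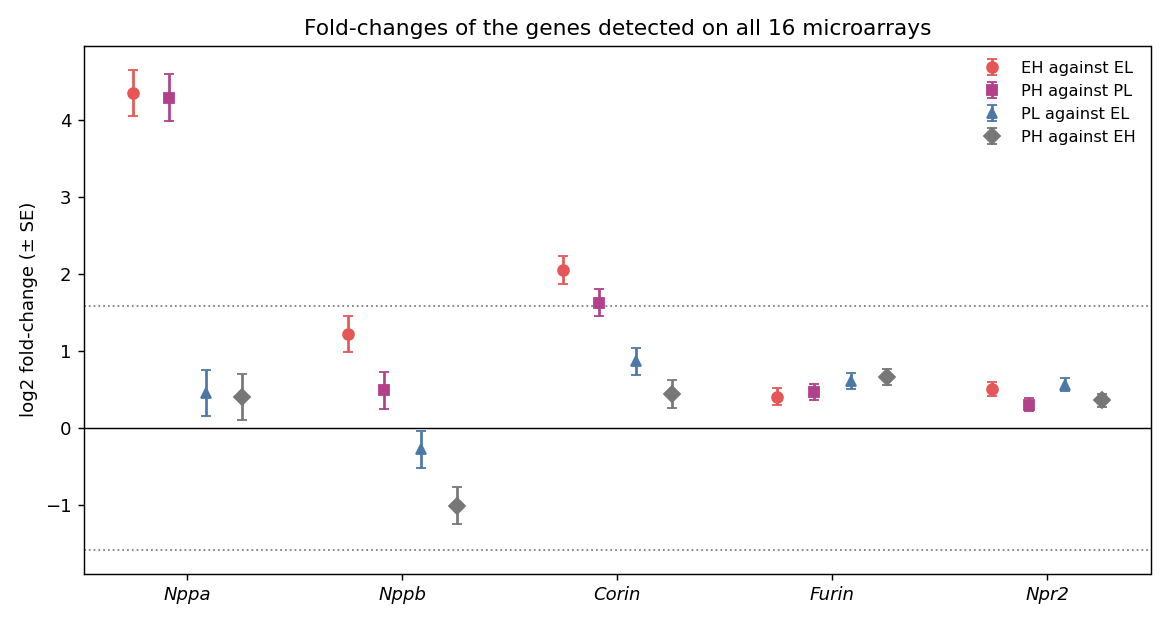
Log2 fold change, with bars of 1 standard error, of the 5 members detected on all 16 arrays, in 4 comparisons given by colour and shape (EH against EL, PH against PL, PL against EL, PH against EH); dotted lines mark 3-fold. Nppa and Corin lie above the upper line in the fraction comparisons, and Nppb lies 1.01 below 0 (-1.01) from EH to PH.

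Over the 16 arrays, the members' log2 signals varied together to different degrees. Arrays of a group share stage, fraction and slide, so these correlations mostly describe group means and carry no p. Pearson's r was 0.926 for Nppa with Corin, 0.881 for Npr2 with Furin, 0.794 for Npr2 with Corin and 0.755 for Corin with Furin. It was 0.642 for the neighbours Nppa and Nppb, and -0.694 for Npr3 with Furin. Among 14078 detected genes, the pattern of Nppa was most like those of Myl1, a myosin light chain (r = 0.995), Slc7a7 (0.987), Fam49a (0.984), Uts2d (0.981) and Etv1 (0.979). Myl1 itself rose by 5.63 on the log2 scale from EL to EH and by 5.19 from PL to PH. Corin was most like Epha4 (0.975) and in the last of its 5 places, Mybphl (0.966). Nppb was most like Cntn1 (0.910), Ier3, an immediate early response gene (0.905), and Fam43a (0.900), lower values than those of the other members. For Npr2 the leading genes were Gm10727 (0.954) and Kcnk3, a potassium channel (0.952), for Furin Snf8 (0.975), and for Npr3 3230401D17Rik (0.961), Tagln2 (0.958) and Ly6h (0.958), with Procr, the endothelial protein C receptor, last of the 5 (0.950). Npr3 was above background on 7 of the 16 arrays and on none at P2, so that its correlations, that with Furin included, rest largely on background signals. Some of the genes named beside members were also at background in whole groups. Cntn1 was detected on no array of EL, PL or PH, and Uts2d on none of EL or PL. Gm10727 was detected on no EL array, Ly6h on no P2 array, and Fam43a on 1 EL, 0 PL and 2 PH arrays. Correlations with these genes rest in part on background signals too.

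Markers of other cell types moved with some of these results. The atrial list (Myl7, Sln, Nr2f2 and Kcnj3) was higher in the high fraction at both stages in 4 of 4 genes. Its summed signal averaged 10189 (EL), 189491 (EH), 7779 (PL) and 362713 (PH), with the brightest signal from the probe of Myl7, an atrial myosin light chain. In PL the sum was 2213, 8031, 17640 and 3231 on arrays 2, 3, 4 and 5. This is the order in which Nppa rises over the PL arrays, from array 2 to 5, 3 and 4, and Nr2f2 and Kcnj3 were detected on none of them. At E15.5 the orders did not match: the sum was lowest on EL8 (9083), where Nppa was highest among the EL arrays, and it was 212265, 186900, 182352 and 176445 on EH arrays 2, 3, 6 and 8, where Nppa was lowest on EH2 and highest on EH8. Without PL4, the highest, the log2 difference of Nppa from PL to PH was 4.66. The ventricular list (Myl2, Hey2 and Irx4) was lower in the high fraction in 3 of 3 genes at both stages, with mean sums of 217008 (EL), 97920 (EH), 218094 (PL) and 24261 (PH). In such bulk samples, fewer cells of a type and less RNA per cell cannot be told apart, and the part of chamber origin in the fraction differences was not tested.

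For the E15.5 signal of Npr3, lists of non-myocytes were read beside it. The endothelial and endocardial list summed to 1144, 1458, 2994 and 2160 on EH arrays 2, 3, 6 and 8. EH6 and EH8, the arrays highest for Npr3, were also highest here. Of the 8 genes of the list, 6 were higher in EH than in EL, 0 differed from EL to PL (0 also at an unadjusted p under 0.05), and 5 were lower in PH than in EH. In EL, PL and PH, Cdh5, Tek, Emcn and Tie1 were detected on no array, Kdr and Nfatc1 on all, and Pecam1 and Plvap on 1 to 4 arrays of each group. The fibroblast and mesenchymal list, to which the probe of Col1a2 gave the brightest signal, averaged a sum of 17171 (EL), 8853 (EH), 897 (PL) and 676 (PH), and was lower at P2 in 7 of 8 genes in the low and 8 of 8 in the high fraction, with Pdgfra and Tcf21 detected on no P2 array.

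The epicardial list summed to 2414, 1286, 95.9 and 129 in EL, EH, PL and PH and was lower at P2 in 6 of 6 genes in both fractions. On EH arrays 2, 3, 6 and 8 the epicardial sum was 965, 486, 2207 and 1487, which is the order of Npr3 over these arrays. Over the EL arrays the orders differed, as Npr3 was highest on EL8 and the epicardial sum on EL6 (3209, with 2182 on EL8). The fibroblast sum of the EH arrays was also highest on EH6 (10463), as were the leukocyte and erythroid sums (8222 and 33991). Lower at P2 were 2 of 6 leukocyte and 2 of 4 erythroid genes in the low fraction, and 5 of 6 and 3 of 4 in the high. From EL to EH, 2 of 6 leukocyte genes passed higher and 0 of 4 erythroid genes passed. The smooth muscle and pericyte list, in which Myh11 was detected on no array, was lower at P2 in 3 of 6 genes in the low and 5 of 6 in the high fraction, and Abcc9, a potassium channel subunit, was 2.92-fold higher in PL than in EL. Between the fractions, 3 of its 6 genes were higher in EH (Pdgfrb, Rgs5 and Kcnj8), Cnn1, calponin, was 5.37-fold higher in PH than in PL and Abcc9 5.44-fold lower. The part of such cells in the fraction differences of the pathway genes below was not tested. Of the neural and Schwann list, 0 of 5 genes passed between the stages in either fraction by limma (0 of 5 unadjusted). The part of these cells in the level of Npr3, and in its fall between the stages, was not tested.

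**Figure D3:**
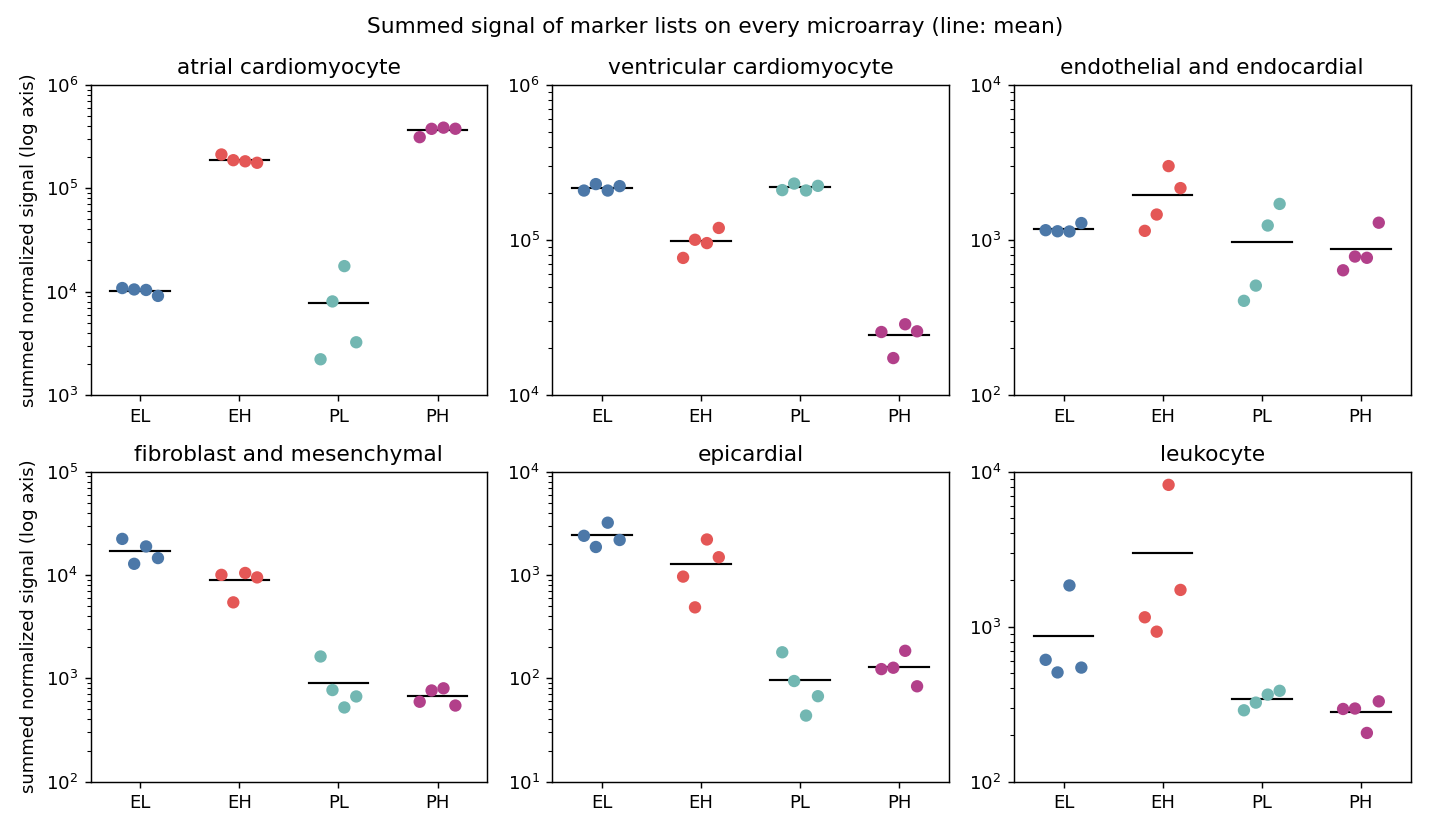
Summed normalized signal of 6 marker lists on each of the 16 arrays, on log axes without unit whose range differs between panels, by group, with lines at group means. The atrial sums lie between 176445 and 212265 in EH and between 312273 and 385987 in PH, and the fibroblast and epicardial sums are lowest at P2.

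Genes of the surrounding pathway were read from 7 lists with 59 genes, of which 43 were detected on all 4 arrays of at least 1 group, and each gene by its brightest probe. Beside the counts below, 4.27% of all probes passed higher and 3.83% lower from EL to EH, and 6.15% and 5.41% from PL to PH. The medians of all probes were -0.02 and -0.01. Of the 22247 detected probes tested alone, 5421 and 7155 passed in either direction. Setting genes at background in 1 of 2 groups to their bounds left each list's median of the fraction comparisons, and the members' medians printed above, where they were. Where only some arrays of a group were above background, as for Gucy1b3 in PL, Mrvi1 in PL and Hey2 in EH, the number is given, and the size of the difference rests in part on signals at background. An adjusted p printed beside a bound belongs to the fitted difference, not to the bound. Within slide 2, which holds 3 arrays, the differences from EL to EH of Gucy1a3, Pde9a, Mrvi1, Pln, Tbx2 and Tbx3 kept their direction and did not pass, and within slide 1 the same held for Chga, Tbx2 and Tbx3. The 2 genes with the largest called change in a list are named by rule, and Ide, Pcsk6, Pde5a, Pde10a, Tbx5, Tbx3, Hey1, Gata4 and Prkg1 were named after their values were seen.

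Of 7 further proteases that cut natriuretic peptides or corin, 0 passed higher (0 also unadjusted) and 1 lower from EL to EH. From PL to PH, 1 passed higher and 2 lower. The median log2 fold changes were -0.32 and -0.01. Over the 5 genes detected on all 4 arrays of at least 1 group they were -0.90 and -0.01. Pcsk6, 1 of those lower at P2, was at background in both P2 groups. Ide, the insulin-degrading enzyme, which also degrades atrial natriuretic peptide, fell by 1.09 from EL to EH (764 ± 111 to 358 ± 28.6, adjusted p = 5.59e-05) and by 1.07 from PL to PH (1066 ± 140 to 508 ± 54.2, adjusted p = 3.34e-05). It was thus lower where Nppa was higher, at both stages. Pcsk6, a convertase that activates corin, was detected on all E15.5 arrays (EL 131 ± 14.6, EH 74.0 ± 30.1, adjusted p = 0.109) and on none at P2, at least 6.73-fold lower from EL to PL (adjusted p = 1.15e-06) and at least 4.35-fold lower from EH to PH (adjusted p = 5.4e-07). Its E15.5 difference passed after normexp (-0.53, adjusted p = 0.0027), with detected probes alone (0.0430), with the floor (0.0221) and without EH8 (0.0360). From EL to PL, 7 of 8 genes of the fibroblast list and 6 of 6 of the epicardial list passed lower as well, and the part of such cells in the level of Pcsk6 was not tested. Ostn, which encodes another ligand of the clearance receptor, passed in neither fraction comparison (0 also unadjusted).

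Cyclic GMP is also made by soluble guanylyl cyclase, a dimer that answers nitric oxide. Of the 9 genes for cyclases and cyclic GMP-dependent kinases, 1 passed higher from EL to EH and 3 from PL to PH, with 0 lower in both (1 lower in each at an unadjusted p under 0.05), and medians of -0.03 and 0.40. Gucy1a3, the alpha 1 subunit, was at 298 ± 37.0 in EL, 1091 ± 82.8 in EH, 38.5 ± 18.9 in PL (3 of 4 arrays detected) and 2238 ± 281 in PH. It rose by 1.88 from EL to EH (adjusted p = 0.000539) and by 5.99 from PL to PH (adjusted p = 7.21e-09). Gucy1b3, the beta 1 subunit, was at 381 ± 51.2, 514 ± 44.0, 24.7 ± 7.06 (1 of 4 arrays detected) and 839 ± 88.5 in the same order. Its difference was 0.44 at E15.5 (adjusted p = 0.203, but 0.0134 after normexp and 0.0489 in a fit of EL and EH alone) and 5.13 at P2 (adjusted p = 7.25e-10). For both subunits the fraction difference was larger at P2, by 4.12 (adjusted p = 5.63e-05) and 4.69 (adjusted p = 8.94e-07), and both fell from EL to PL, by 3.09 and 3.99 on the log2 scale. Prkg1, the cyclic GMP-dependent kinase, was 0.31 lower in EH than in EL (-0.31, adjusted p = 0.487) and rose by 1.07 from PL to PH (adjusted p = 0.00201), and that change with stage passed (1.38, adjusted p = 0.0143). The P2 rise did not pass in a fit of PL and PH alone (adjusted p = 0.0557).

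Phosphodiesterases and exporters remove cyclic GMP. Of 11 such genes, 4 passed higher and 1 lower from EL to EH, and 4 higher and 3 lower from PL to PH, with medians of 0.26 and 0.06. Pde2a, which cyclic GMP itself stimulates, rose from 116 ± 21.9 in EL to 1574 ± 602 in EH (3.70, adjusted p = 1.06e-06) and, at P2, from 322 ± 93.9 to 3727 ± 399 (3.57, adjusted p = 5.19e-07). Pde9a, specific for cyclic GMP, rose by 2.29 from EL to EH (adjusted p = 0.000114) and was at least 5.62-fold higher in PH than in PL, where no array detected it (adjusted p = 5.67e-06). Both were higher in the high fraction at both stages. Pde10a was detected on no array of EL or PL. It was at least 2.05-fold higher in EH and at least 1.09-fold higher in PH (3 of 4 arrays detected). At P2 it did not pass with the floor for dim signals (0.42, adjusted p = 0.226). Pde5a, the target of sildenafil, behaved otherwise. Its E15.5 means were 171 ± 30.1 (EL) and 207 ± 54.7 (EH) and its P2 means 1012 ± 285 (PL) and 313 ± 92.2 (PH), a difference of 0.26 at E15.5 (adjusted p = 0.731) and a fall of 1.71 on the log2 scale from PL to PH (adjusted p = 0.00082), and the change with stage passed (-1.96, adjusted p = 0.0146).

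Of 6 substrates of the cyclic GMP-dependent kinase, 2 passed higher and 1 lower at E15.5, and 1 higher and 1 lower at P2, with medians of 0.16 and -0.12. Mrvi1, which encodes the kinase's partner at the inositol trisphosphate receptor, rose by 3.74 from EL to EH (35.3 ± 5.15 to 472 ± 66.9, adjusted p = 0.00193) and by 7.08 from PL to PH (17.95 ± 16.9, with 2 of 4 arrays detected, to 1422 ± 135, adjusted p = 4.23e-06). Pln, phospholamban, the inhibitor of the sarcoplasmic calcium pump, went the other way. It fell by 1.36 from EL to EH (2409 ± 125 to 950 ± 192, adjusted p = 0.00041) and by 3.20 from PL to PH (9752 ± 2849 to 1045 ± 202, adjusted p = 8.75e-08), the latter being the larger (-1.83, adjusted p = 0.00184).

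Peptide hormones are stored in granules, and 11 genes of the secretory granule were listed. Of these, 2 passed higher from EL to EH and 3 from PL to PH, with 0 lower in both (0 and 1 lower unadjusted). The medians were 0.23 and 0.02. Over the 4 genes detected on all 4 arrays of at least 1 group they were 0.30 and 0.72. Pam, the amidating enzyme and the main membrane protein of atrial granules, was the gene of the list that passed at both stages. It rose from 1061 ± 234 in EL to 3866 ± 793 in EH (1.87, adjusted p = 0.000124) and, at P2, from 1629 ± 269 to 8872 ± 2664 (2.41, adjusted p = 6.48e-06). Chga, chromogranin A, was detected on 3 of 4 EH arrays and on no other array, at least 2.66-fold higher in EH than in EL (adjusted p = 0.0167) and at least 2.43-fold lower in PH than in EH (adjusted p = 0.0147). The rise from EL did not pass without EH2, EH3 or EH6 (adjusted p from 0.0537 to 0.0552), nor in a fit of EL and EH alone (adjusted p = 0.105). Its fitted log2 size, set against EL signals at background, was 3.38 with all arrays and 2.83 to 4.50 with an array left out.

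**Figure D4:**
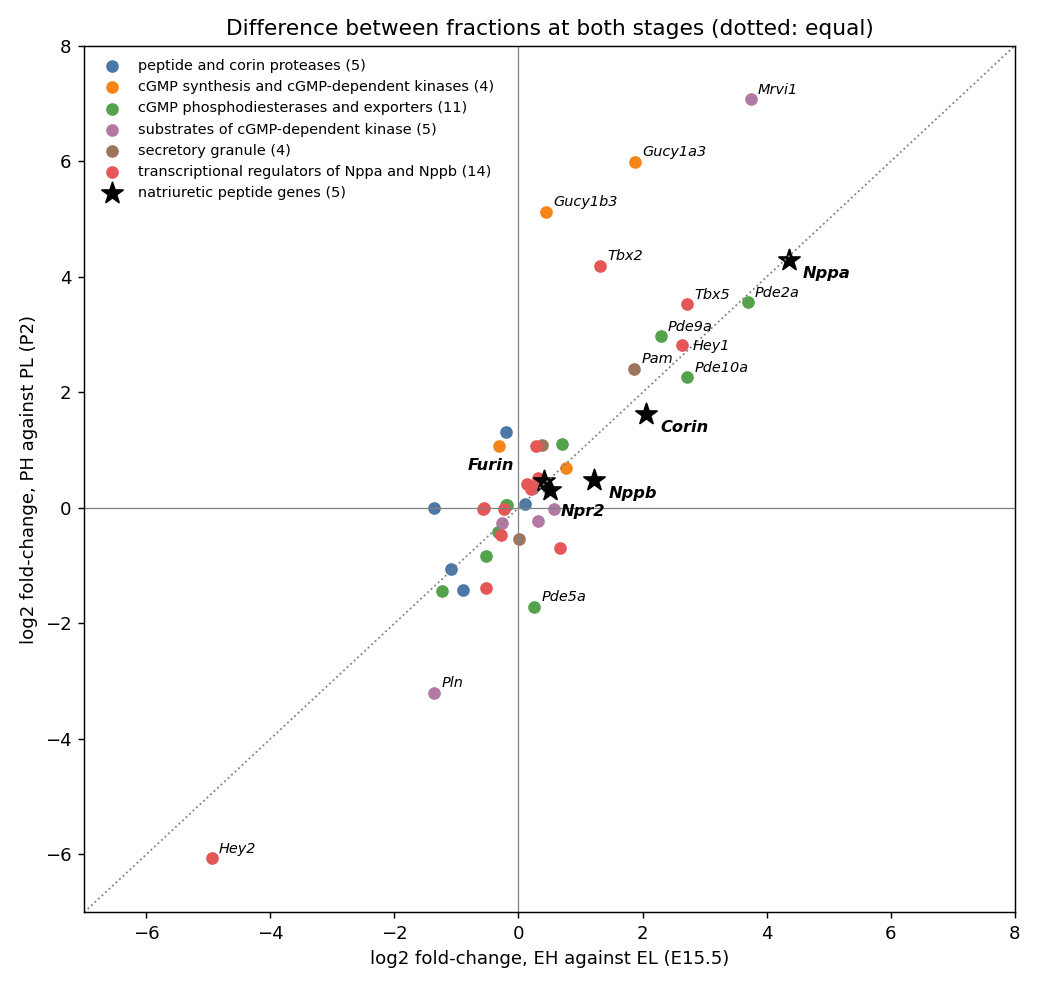
Log2 fold change of the pathway genes from PL to PH against that from EL to EH, each point a gene detected on all 4 arrays of at least 1 group, by its brightest probe and coloured by list, with stars for the 5 members detected throughout and a dotted line where both are equal. Nppa, Pde2a and Tbx5 lie high on both axes, and Gucy1a3 and Gucy1b3 lie higher for P2 than for E15.5.

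Of 14 transcription factors known to act on Nppa or Nppb, 4 passed higher and 4 lower from EL to EH, and 6 higher and 4 lower from PL to PH, with medians of 0.18 and 0.16. Hey2, a ventricular repressor that is also on the ventricular marker list, fell by 4.95 on the log2 scale from EL (250 ± 38.2) to EH (10.6 ± 8.61, 1 of 4 arrays detected, adjusted p = 1.33e-05), and was at least 14.6-fold lower in PH, where no array detected it, than in PL (248 ± 86.8, adjusted p = 8.9e-07). Hey1, its atrial relative, rose by 2.63 and 2.83 in the same comparisons, with 2 of 4 PL arrays detected. Tbx5, an activator of Nppa, rose by 2.72 from EL to EH (adjusted p = 5.95e-07) and by 3.53 from PL to PH (adjusted p = 1.83e-08). The T-box repressors also differed between the fractions. Tbx2 rose from 17.8 ± 2.15 in EL (1 of 4 arrays detected) to 44.3 ± 7.18 in EH (1.31, adjusted p = 0.00494, but 0.34 and adjusted p = 0.0675 after normexp) and was at least 5.60-fold higher in PH (114 ± 39.8) than in PL, where no array detected it (adjusted p = 1.02e-07). Tbx3 rose by 0.67 from EL to EH (167 ± 16.4 to 264 ± 15.0, adjusted p = 0.00196) and fell by 0.70 from PL to PH (143 ± 26.2 to 87.3 ± 5.41, adjusted p = 0.000867), and the change of direction with stage passed (-1.37, adjusted p = 0.000334). Gata4 fell by 0.57 from EL to EH (2261 ± 55.8 to 1524 ± 66.1, adjusted p = 4.41e-05) and lay at 2174 ± 125 and 2149 ± 139 across the P2 fractions, PL and PH (-0.02), which also differed with stage (0.55, adjusted p = 0.00293).

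Genes that flank the Nppb and Nppa pair on chromosome 4 changed less than Nppa. Mfn2, Plod1 and 2510039O18Rik on 1 side and Clcn6 and Agtrap on the other differed by -0.39, 0.73, -0.03, -0.47 and 0.19 on the log2 scale from EL to EH. From PL to PH they differed by -0.37, 0.28, 0.04, 0.69 and -0.21. Of these 5, Plod1, a collagen lysyl hydroxylase, was the 1 that passed higher in EH (84.4 ± 18 to 139 ± 23.7, adjusted p = 0.0155), and it did not pass at P2 (adjusted p = 0.441). Clcn6, an endosomal chloride transporter gene next to Nppa, fell from 75.01 ± 4.81 in EL to 54.2 ± 5.84 in EH (adjusted p = 0.00212) and rose from 47.8 ± 1.98 in PL to 77.3 ± 5.48 in PH (adjusted p = 4.97e-05). Mfn2, a mitochondrial fusion gene, was lower in the high fraction at both stages (adjusted p = 0.00836 and 0.00769).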

How the data were processed

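Per the file headers, the authors' arrays were 1-colour Agilent 60-base mouse arrays read with Feature Extraction 10.7.3.1, whose annotation gives mm9 coordinates. The processed signal intensity of 59305 spots per array, background-subtracted by that software, was used as deposited. Spots with an outlier flag were left out, spots of a probe were averaged, arrays were quantile normalized as in the study's methods, and log2 values of 55673 probes were fitted with limma 3.58.1 (R 4.3.3), with a mean for each group, a shared spread over 16 arrays and Benjamini-Hochberg adjustment over all probes. The log2 values that the authors deposited correlated with these at 0.999995 or above on every array and were used as an alternative. The array's design names the genes, and 115 of 121 listed symbols are current RefSeq symbols (Gucy1a3 and Gucy1b3 are now Gucy1a1 and Gucy1b1). For a gene with several probes, the brightest stands for it. Named genes of a list were the 2 with the largest called change, and the genes most like a member were the 5 with the highest correlation. The members, lists and tests were chosen with earlier results of these data known. The fit was tested on simulated data. One item is not reported here.

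Nothing in the labels ties a sample to single animals, and the p-values measure the spread between pools. The number of arrays limits the precision, and no 2 arrays held identical values. Sample numbers are shared by EL and EH, and by PL and PH. The deviations of same-numbered arrays from their group means correlated at 0.255, 0.189, 0.450 and 0.379 at E15.5, so the numbers pair the E15.5 samples. At P2 they were 0.375, 0.176, -0.031 and 0.542, which leaves a pairing there unsettled. The main fit took no pairing at either stage, so its p-values leave out what same-numbered samples share. The replicate number entered at both stages as a block, as an alternative only. Alternatives were scaling to the 75th percentile, normexp with an offset of 50, the deposited values, detected probes alone, a floor for dim signals, the methods' test (analysis of variance with Tukey's post-hoc test and 3-fold), a fit of the compared groups, the slide and the replicate number as blocks, all probes of a gene averaged, and leaving out each array in turn.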

Additional observations from a re-analysis of the deposited data

Results flagged for a closer look

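Of 32 groups of 4 arrays, 1 for each member and group, 4 held an array far from the other 3, where chance flags about 1 in 20 groups. The Corin signal of EH8 was 1486 and those of the other EH arrays were 1238 to 1266, and the Corin signal of PL2 was 450 beside 604 to 633 in the other PL arrays. Without either array the fraction differences of Corin kept their direction. For Npr1, EH8 read 7.22 beside 3.78 to 4.10, and for Npr3, PH2 read 6.87 beside 3.45 to 3.77, all of them not well above background.

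The members and the named pathway genes, 27 genes in all, were tested for a change between E15.5 and P2. The change tested was that of the difference between the ITGA6high and ITGA6low fraction. By limma's test of the difference itself, 8 named pathway genes passed. Of all probes, 1.81% passed with a larger and 1.35% with a smaller difference at P2. Pde5a, Tbx3, Gata4 and Prkg1, among the 8, were named after their values were seen, so the count is not an unbiased share. On the log2 scale the change was 4.12 for Gucy1a3 and 4.69 for Gucy1b3, the subunits of soluble guanylyl cyclase, 2.88 for Tbx2 (at background on all PL arrays, so that the size is not a measured one), 1.38 for Prkg1 and 0.55 for Gata4. It was -1.83 for Pln, -1.96 for Pde5a and -1.37 for Tbx3. With the floor for dim signals, the changes of Tbx2 (1.18, adjusted p = 0.0565) and Gata4 (adjusted p = 0.0510) did not pass, and that of Gata4 did not pass after scaling to the 75th percentile (adjusted p = 0.115). With the E15.5 arrays of slide 1 alone those of Pde5a (adjusted p = 0.0562) and Prkg1 (0.0931) did not pass, and with those of slide 2 alone, 3 arrays, those of Pde5a (0.309), Prkg1 (0.257), Pln (0.102), Tbx2 (0.0537) and Gata4 (0.0668) did not. For none of the 8 members of the natriuretic peptide system did this test pass over all probes.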

How the results depend on the processing

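Of 749 fold changes of members under the alternatives, 709 kept their direction and side of the threshold, 29 no longer passed, 5 newly passed and 6 changed sign, and for the pathway genes these numbers were 1175, 28, 6 and 4 of 1213. Nppa and Corin passed from EL to EH and from PL to PH under every alternative run. The cause of the changes below was not tested unless stated. From EL to EH the members past the adjusted p fell from 5 to 3 within slide 1 and to 2 within slide 2, which hold fewer arrays (in slide 2 EH6 is the 1 high array, so that its count is not read as a limit), and ranged from 4 to 5 with an array left out. From PL to PH, those called fell from 2 to 1, losing Corin, after scaling to the 75th percentile and after normexp (1 to 2 with an array left out), and those past the adjusted p from 4 to 2 after that scaling and in a fit of PL and PH alone. Between stages, Npr3 was no longer called after normexp or with the floor, which left 0 called from EL to PL and 0 from EH to PH. With the floor, 7 members passed from EH to PH: Corin newly passed, and Nppc and Npr1, at background, take the arrays' floors by construction, as do other dim probes, so that 36532 of 55673 probes passed and the 7 are not read as a result. The stage dependence of the Nppa difference (-0.06) was 0.15 after scaling to the 75th percentile, 0.013 within slide 1 and -0.31 to 0.30 with an array left out. That of Furin (0.05) was -0.10 within slide 2 and -0.014 to 0.15 with an array left out. The difference of Pde5a from EL to EH was -0.14 within slide 2, that of Chga from PL to PH -0.27 with the floor, and that of Gata4 from PL to PH -0.055 to 0.027 with an array left out. None of these sign changes concerns a value that passed. Scaling to the 75th percentile moved the median of all probes to -0.18 from EL to EH, -0.14 from PL to PH and 0.19 in both stage comparisons, and the floor moved it to -0.32, -0.27, 0.40 and 0.45. With the replicate block, 5 members passed from EL to EH and 2 were called. From PL to PH 3 passed and 2 were called, as Npr2 missed the test (0.30, adjusted p = 0.0571). The block changed no other member's call in these comparisons. Nppc, Npr1 and the P2 signal of Npr3 are limited by background.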
